A study of Mus musculus with 15 samples.

Results

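Calb1, Calb2, Sox6, Otx2, Kcnj6, Lmo3, Lpl and Ndnf are 8 genes used to tell dopamine neurons of the substantia nigra from those of the ventral tegmental area. They were chosen with earlier results of these data known, taken by gene symbol and all kept whatever their values. The RNA came from sorted ventral midbrain cells of mice with the Pitx3-GFP reporter. There, green fluorescent protein (GFP) marks activity of Pitx3, a transcription factor gene of dopamine neurons. All 8 were among the 21566 genes measured in GFP− and GFP+ cells at embryonic day 14 (E14), and 7 of them, all but Lpl, among the 10781 genes of a separate series of GFP+ cells. That series ran from E14 over embryonic day 16 (E16) to birth (P0). Of 7528 circular RNAs (circRNAs, closed loops read across a back-splice junction) in the age series, 6 carried the name of a member, 2 of Kcnj6 and 4 of Sox6.

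Each of the 5 groups had 3 libraries, all of genotype Pitx3-GFP with no other allele or treatment named, made from total RNA after removal of ribosomal RNA. The labels call the cell type of all 15 samples dopamine neurons, the GFP− fractions included, so GFP− is used here as the name of the sorted fraction. Midbrains came from 3 litters, but the sources do not say that each library had a litter of its own, so p-values reflect how these samples vary, which may be technical in part. Pitx3 had 7.40 ± 1.19 normalized reads in the GFP− and 1106 ± 216 in the GFP+ fraction, and Th, which encodes tyrosine hydroxylase, 90.0 ± 17.7 and 8559 ± 850.5 (mean ± SD, n = 3). All 17 genes of a dopamine neuron list were higher in GFP+ cells. Of a list of progenitor and radial glia genes, 15 of 16 were lower there, with summed levels of 78861 to 94040 in GFP− and 13054 to 14542 in GFP+ libraries. Both fractions were measured in bulk, where fewer cells of a type and less RNA per cell cannot be told apart.

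Dopamine neurons of the midbrain share one transmitter but fall into groups that differ in position, projections and vulnerability. Neurons of the ventral tier of the substantia nigra are known for the transcription factor Sox6 and the potassium channel subunit gene Kcnj6. Neurons of the ventral tegmental area and the dorsal tier are known for the homeobox factor Otx2, in part of the area, and for the calcium-binding proteins calbindin and calretinin, encoded by Calb1 and Calb2. The separation is gradual: several of these genes are first shared by many neurons and become restricted later, and most are also used by other cells of the midbrain.

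At E14, 3 of the 8 members were higher in GFP+ than in GFP− cells, Kcnj6, Lmo3 and Sox6, and Calb2 was lower. The other 4, Calb1, Otx2, Lpl and Ndnf, did not pass the test (limma-trend on log2(normalized reads + 1), two-sided, Benjamini-Hochberg adjusted over 18260 genes, threshold 0.05). Across all genes tested, 12.7% were higher and 18.0% lower, so member counts of 3 and 1 stand on a background in which such calls were common. The same shares stand behind the counts of list genes in the sort given below. The largest fold among the 8 was 2.54, that of Kcnj6, far below those of Th and Pitx3.

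**Figure D1:**
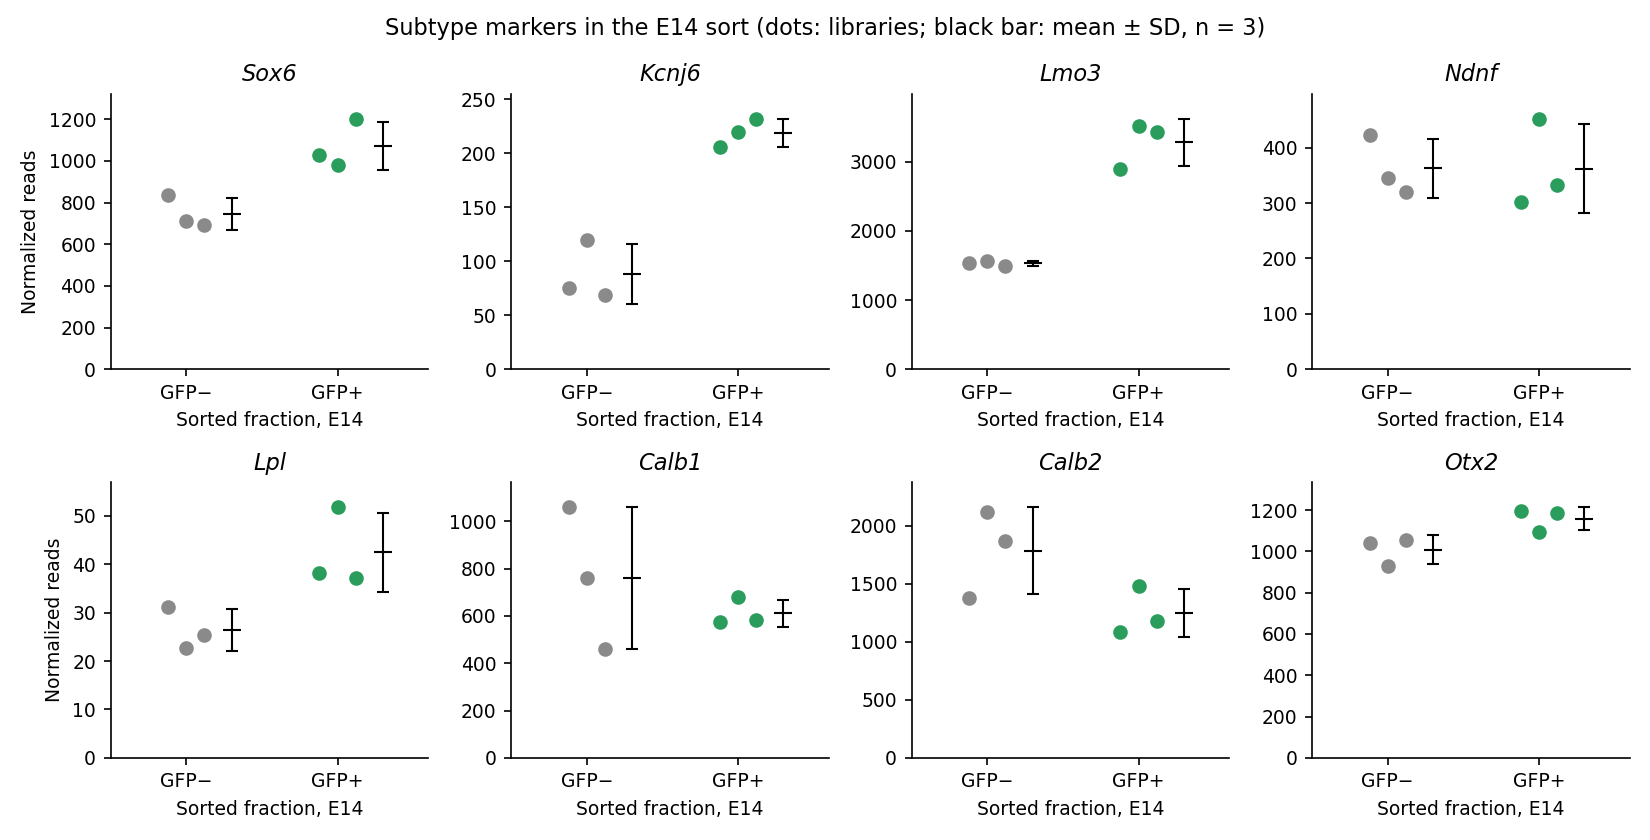
Normalized reads (vertical axes, from 0) of the 8 members in the GFP− and GFP+ fractions sorted at E14; dots are libraries and black bars the mean ± SD of 3. The GFP+ libraries of Kcnj6, Lmo3 and Sox6 all lie above the GFP− libraries, those of Otx2 and Lpl also do so without passing the test, and those of Calb1, Calb2 and Ndnf overlap.

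Sox6, a transcription factor of the SoxD group (chromosome 7, 115470872 to 116038796, minus strand, GRCm38), was at 835, 712 and 693 normalized reads in the 3 GFP− libraries and at 1030.3, 981 and 1203 in the GFP+ libraries. Every GFP+ library was above every GFP− library. This was a 0.52 higher log2 level (SE 0.11, limma adjusted p = 0.00311). Its closest relative Sox5 went the other way, from 787 ± 116 in GFP− to 271 ± 41.1 in GFP+ cells (log2 difference -1.54, SE 0.14, limma adjusted p = 5e-06). Among 15 tested genes of a list of SoxD, Otx and partner factors, Sox6 included, 5 were higher and 4 lower, against 12.7% and 18.0% of all genes. The median log2 fold change was -0.02 against 0.02 over all genes.

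Lmo3, a LIM-only protein that binds LIM-domain cofactors in place of DNA (chromosome 6, 138362918 to 138581968, minus strand), was at 1533, 1568 and 1498 normalized reads in GFP− and at 2895, 3521 and 3437 in GFP+ libraries. The GFP− libraries differed little among themselves, and all 3 GFP+ libraries were far above them. They were higher by 1.09 in log2 (SE 0.09, limma adjusted p = 2.27e-06), or 2.13-fold. The related Lmo4 was also higher in GFP+ cells (log2 fold change 1.19), whereas Lmo1 and Lmo2 were lower (-3.76 and -1.62). Of 20 genes on a list of LIM-domain factors and their partners, Lmo3 included, 9 were higher and 9 lower. The higher ones included the dopamine neuron factors Lmx1b (2.39) and Lmx1a (2.14). Among the lower ones were Lhx2 (-4.85) and Isl1 (-4.64), factors of other neurons.

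RefSeq windows of 250 bases upstream of a start site were at hand for 4 members, Lmo3, Sox6, Otx2 and Kcnj6, in 13 windows of GRCm38.p6. They were searched on both strands for AAAGGTCA, the element bound by monomers of the dopamine neuron factor Nr4a2 and its relatives, and for TAATCC, the letters bound by bicoid-type homeodomains such as Otx2 and Pitx3. Of 32851 windows of the same length over all genes, 1.34% held the first and 6.25% the second. Among the 13 windows, 1 of Sox6 held the first, and 1 other of Sox6 and 1 of Otx2 held the second; the windows of Lmo3 and Kcnj6 held neither. Windows of Sox6 and Lmo3, both higher in GFP+ cells, are printed, and those of Kcnj6, also higher there, are not. The Sox6 window was picked from several of this gene for its match to AAAGGTCA, in capitals and starting 76 bases before the start site. Both printed windows are written 5′ to 3′ on the minus strand, the first at chr7:116031048-116031297 and the second at chr6:138581969-138582218.
Sox6: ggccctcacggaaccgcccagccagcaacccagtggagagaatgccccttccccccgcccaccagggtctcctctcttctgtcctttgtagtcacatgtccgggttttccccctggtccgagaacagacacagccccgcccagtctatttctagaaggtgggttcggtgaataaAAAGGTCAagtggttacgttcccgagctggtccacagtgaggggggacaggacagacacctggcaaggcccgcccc
Lmo3: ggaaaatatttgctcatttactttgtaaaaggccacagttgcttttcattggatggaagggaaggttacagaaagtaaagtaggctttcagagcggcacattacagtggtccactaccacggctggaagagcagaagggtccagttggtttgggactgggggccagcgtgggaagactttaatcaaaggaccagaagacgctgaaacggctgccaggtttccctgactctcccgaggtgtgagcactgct
A match says only that these letters occur in the window.

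Kcnj6, which encodes a G-protein-gated inwardly rectifying potassium (GIRK) channel subunit that dopamine autoreceptors open (chromosome 16, 94748636 to 94997701, minus strand), was at 75.3, 119.9 and 69.1 normalized reads in GFP− and at 206, 219 and 232 in GFP+ libraries. All GFP+ libraries were above all GFP− libraries, and they lay close together. Kcnj6 was thus higher by 1.35 in log2 (SE 0.20, limma adjusted p = 0.000349). The other GIRK subunit genes did not follow it. Kcnj9 was lower in the GFP+ fraction (-1.09, limma adjusted p = 0.000277) and so was Kcnj5 (-1.60), while Kcnj3 did not pass (-0.30, limma adjusted p = 0.108). Of 22 genes of GIRK signalling, 6 were higher and 7 lower. The higher ones included the kappa opioid receptor Oprk1 (4.69) and the dopamine receptor Drd2 (2.82). Genes of the Rgs family, which speed the shut-off of G proteins, were on either side. Rgs10 (-1.93) and Rgs4 (-1.25) were lower and Rgs8 (0.49) higher. Of 7 other inward rectifier genes, limma called 0 higher and 4 lower, and at an unadjusted p under 0.05 it was 1 higher, Kcnj11, and the same number lower.

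Otx2, a homeobox factor (chromosome 14, 48657677 to 48673819, minus strand), was at 1041, 929 and 1056 normalized reads in GFP− and at 1195, 1093 and 1186 in GFP+ libraries. The fractions did not overlap, but the difference was small, 0.20 in log2 (SE 0.09, limma adjusted p = 0.105). Libraries without overlap were seen for 5 of the 8 members, Kcnj6, Lmo3, Sox6, Otx2 and Lpl, and for 44.1% of all genes tested. Otx1, its relative, was at 104 ± 4.84 in GFP− and 91.4 ± 14.4 in GFP+ cells.

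Calb2 encodes calretinin (chromosome 8, 110137502 to 110168210, minus strand). It was at 1379, 2116 and 1866 normalized reads in GFP− and at 1089, 1485 and 1176 in GFP+ libraries. GFP+ was lower on average, but its highest library was above the lowest GFP− library. The log2 difference was -0.51 (SE 0.15, limma adjusted p = 0.0281), and the call was lost when GFP− library 2 or 3 or GFP+ library 1 or 3 was left out (log2 fold change -0.37 to -0.47, limma adjusted p 0.0619 to 0.127).

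Calb1 encodes calbindin (chromosome 4, 15881264 to 15908064, plus strand). Its GFP− libraries were spread from 460.0 over 760.4 to 1060.2 normalized reads, and the GFP+ libraries, at 576, 678 and 582, lay inside that range. Their log2 difference was -0.24 (SE 0.23, limma adjusted p = 0.483). Without GFP− library 3, the lowest, it was -0.56 with limma adjusted p = 0.0230. Among 26 genes of a list of EF-hand calcium-binding proteins, the family to which both belong, 4 were higher and 8 lower in GFP+ cells. Necab1 (2.86) and Kcnip4 (2.46), a potassium channel-interacting protein, were among the higher ones. Pvalb, which encodes parvalbumin of fast-spiking neurons, was among the lower ones (-3.45, SE 0.49).

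Ndnf, a secreted neuron-derived neurotrophic factor (chromosome 6, 65671590 to 65712326, plus strand), was at 422, 346 and 320.1 normalized reads in GFP− and at 302, 452 and 332 in GFP+ libraries, so at E14 the fractions overlapped fully. The difference in log2 was -0.01 (SE 0.16, limma adjusted p = 0.957). Lpl, the lipase that releases fatty acids from lipoproteins (chromosome 8, 68880491 to 68907448, plus strand), was the least abundant member. It was at 31.2, 22.8 and 25.4 normalized reads in GFP− and at 38.3, 51.8 and 37.2 in GFP+ libraries. The difference of 0.66 in log2 (SE 0.26, limma adjusted p = 0.0811) did not pass. Of 18 tested genes of the lipoprotein lipase pathway, 3 were higher, with the largest change in the proprotein convertase Pcsk6 (2.92), and 5 lower, among them the fatty acid carrier Fabp7 (-4.78), the endothelial lipase Lipg (-3.98) and Apoe (-2.71).

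Genes of the wider lists of both territories were found on either side of the sort. Of 17 tested genes of a nigral, ventral-tier list, 8 were higher and 5 lower in GFP+ cells, with a median log2 fold change of 0.26. Of 23 genes of a tegmental, dorsal-tier list, 6 were higher and 8 lower, with a median of 0.10, and the median over all genes was 0.02. The members Sox6, Kcnj6 and Lmo3 are among the 8 higher nigral genes, and Calb2 is among the 8 lower tegmental genes. Slc6a3, the dopamine transporter, and Aldh1a1, a retinoic acid-producing enzyme, led the nigral list at 7.85 and 7.80. Both, and Drd2, are also on the dopamine neuron list, of which all genes were higher in GFP+ cells. Cck, a neuropeptide gene, led the tegmental list at 4.06. At the other end stood the neuropeptide gene Nts (-4.71) and Crym (-4.70) of the tegmental list and Anxa1 (-1.67) of the nigral list, a later marker of a ventral nigral population.

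From E14 to P0, 5 of the 7 members measured in the age series rose in GFP+ cells, Calb1, Ndnf, Calb2, Lmo3 and Kcnj6. Sox6 and Otx2, the transcription factors that stand for the 2 territories, did not pass the test over any interval. None of the 7 fell by the same limma test, 0 at an unadjusted p under 0.05 and 0 in the authors' deposited table. The share of all 10781 genes that rose was 25.1% and the share that fell 30.6%. Over E14 to E16, 5 of 7 members rose, against 15.2% of all genes rising and 17.8% falling. Over E16 to P0, 3 of 7 rose, against 16.8% and 16.6%. A moderated F test over the 3 ages passed for the same 5 members that rose from E14 to P0, and for 59.7% of all genes. Levels in the age series and in the sort were scaled separately by the authors and are not compared.

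**Figure D2:**
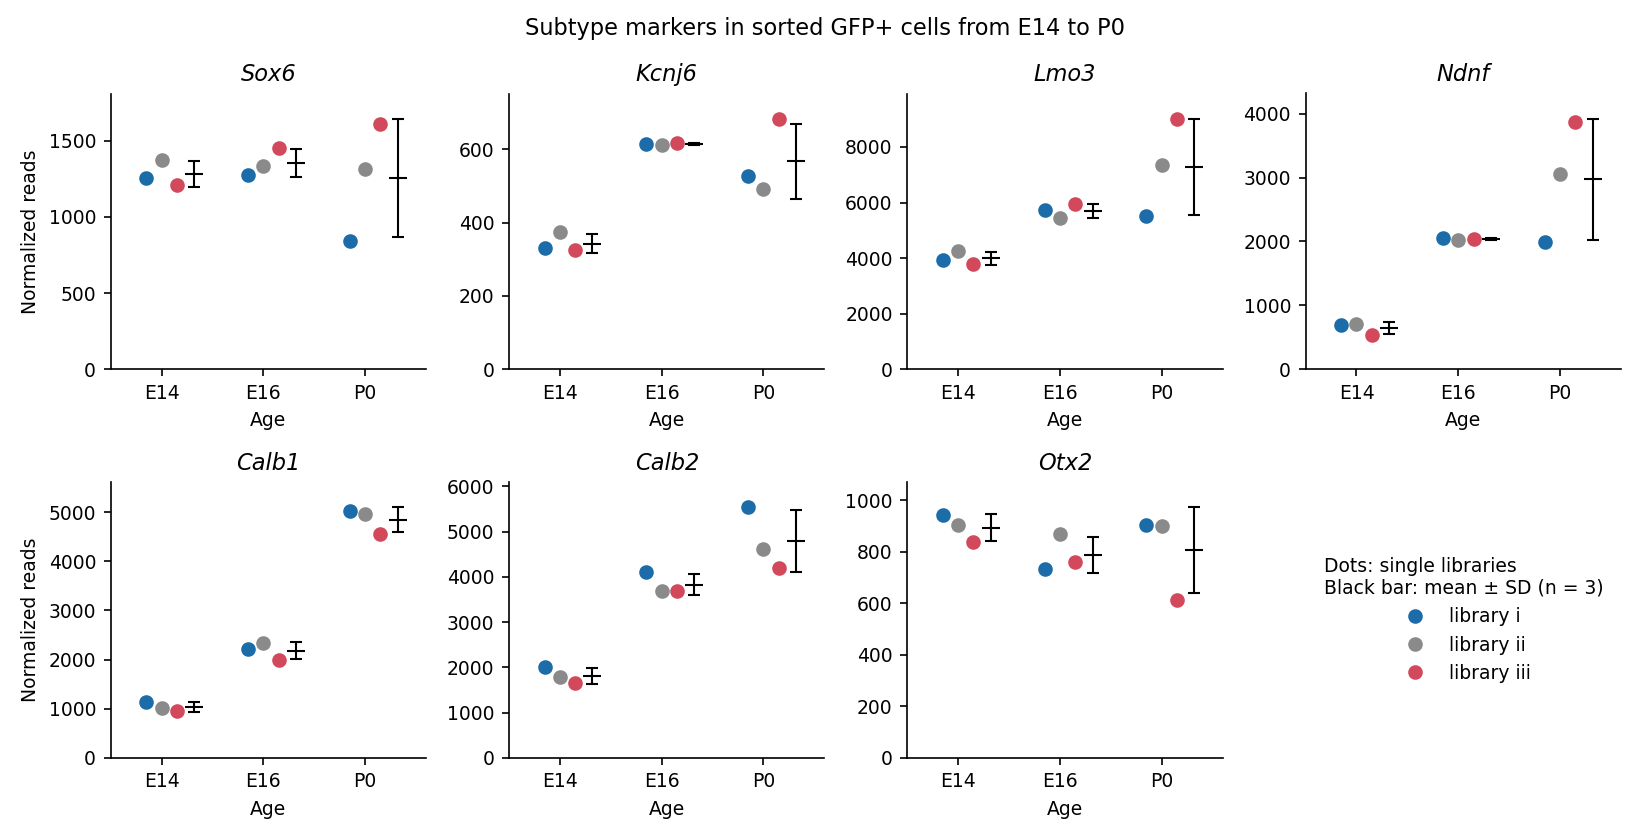
Normalized reads (vertical axes, from 0) of the 7 measured members in GFP+ cells at E14, E16 and P0; dots are libraries i, ii and iii of each age and black bars the mean ± SD of 3. Calb1 rises at both steps, Ndnf and Kcnj6 mainly before E16, Sox6 and Otx2 show no shared change with age, and the P0 libraries of Sox6, Lmo3 and Ndnf lie far apart.

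Calb1 rose at both steps. It was at 1138, 1019 and 952 normalized reads in libraries i, ii and iii at E14, at 2215, 2332 and 1996 at E16 and at 5027, 4964 and 4555 at P0. No age overlapped with another. It gained 1.07 in log2 from E14 to E16 and 1.15 from E16 to P0, together 2.23 (SE 0.09, limma adjusted p = 8.62e-10), or 4.68-fold. The change after E16 differed from the change before it by 0.08 (SE 0.15, limma adjusted p = 0.776).

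Ndnf also rose more than 4-fold, but mostly before E16. It was at 699, 707 and 534 normalized reads at E14, at 2057, 2017 and 2041 at E16 and at 1985, 3063 and 3875 at P0. The E16 libraries were nearly equal, and the P0 libraries reached from below them to far above. It gained 1.67 in log2 from E14 to E16 (SE 0.18, limma adjusted p = 1.54e-05) and 2.16 from E14 to P0 (limma adjusted p = 2.88e-07), or 4.47-fold. From E16 to P0 it was 0.49 (limma adjusted p = 0.0479), with overlapping libraries. This call was lost when any 1 of 7 libraries was left out, E14 i or ii, E16 i, ii or iii, or P0 ii or iii. Without P0 library iii the change was 0.27 (limma adjusted p = 0.204), and without P0 library i it was 0.76 (limma adjusted p = 0.00112).

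Calb2 was at 1999, 1786 and 1657 normalized reads at E14, at 4099, 3694 and 3691 at E16 and at 5542, 4625 and 4203 at P0. The 3 ages did not overlap. Calb2 gained 1.08 in log2 from E14 to E16, 0.32 from E16 to P0 (limma adjusted p = 0.0281) and 1.40 from E14 to P0 (SE 0.10, limma adjusted p = 7.44e-08), or 2.63-fold. The call of the later step was lost without P0 library i or ii or E16 library ii or iii (0.21 to 0.34, limma adjusted p 0.0585 to 0.124). The 2 calcium-binding members rose with most of their family. Of 20 EF-hand genes measured, 18 rose and 1 fell from E14 to P0, against 25.1% and 30.6% of all genes. The median was 0.71 against -0.05 over all genes. Caln1 (2.58), Vsnl1 (2.10) and Hpca (1.83), calcium sensors of neurons, were among those that rose, and Ncs1 fell by 0.44.

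Kcnj6 was at 329.6, 373 and 326 normalized reads at E14, at 614, 611 and 617 at E16 and at 527, 490.2 and 683 at P0. Its rise was complete at E16, where the 3 libraries were nearly equal, and the P0 libraries lay around that level. In log2 the change was 0.84 from E14 to E16 (SE 0.12, limma adjusted p = 0.000145), -0.13 from E16 to P0 (limma adjusted p = 0.437) and 0.71 from E14 to P0 (limma adjusted p = 0.000212), or 1.64-fold. Kcnj9, lower in the GFP+ fraction at E14, rose in GFP+ cells at both steps, from 147 ± 13.3 at E14 over 236 ± 7.51 at E16 to 421 ± 26.9 normalized reads at P0, a log2 fold change of 1.51 (limma adjusted p = 1.98e-07). Kcnj3 did not pass (0.16, limma adjusted p = 0.379). Of 20 GIRK signalling genes, 11 rose and 2 fell from E14 to P0, against 25.1% and 30.6% of all genes. The GABA receptor subunit Gabbr2 (1.56), Oprk1 (1.44) and Rgs4 (1.41) were among the risers, and Rgs8 fell (-0.52).

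Lmo3 was at 3922, 4245 and 3796 normalized reads at E14, at 5729, 5432 and 5934 at E16 and at 5535, 7342 and 8996 at P0. E14 was below both later ages in every library, and P0 overlapped with E16. Lmo3 gained 0.52 in log2 from E14 to E16 (SE 0.13, limma adjusted p = 0.00695) and 0.84 from E14 to P0 (limma adjusted p = 7.82e-05), or 1.79-fold. From E16 to P0 it was 0.33 (limma adjusted p = 0.0630), and without P0 library i 0.51 (limma adjusted p = 0.00200). Most genes on the list of LIM-domain factors and partners went the other way. Of 12 genes measured there, Lmo3 included, 1 rose and 9 fell from E14 to P0, against 25.1% and 30.6% of all genes. The median of the list was -0.65. The 1 that rose was Lmo3. Tcf12 (-1.32), the cofactor Ldb1 (-1.31) and Nhlh2 (-1.15) fell the most among those named. Lmo4 did not pass (0.12, limma adjusted p = 0.270).

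Sox6 was at 1256, 1374 and 1210.3 normalized reads at E14, at 1272, 1332 and 1454 at E16 and at 839.7, 1316 and 1611 at P0. The P0 libraries held both the lowest and the highest value of the series. The log2 fold change from E14 to P0 was -0.08 (SE 0.17, limma adjusted p = 0.722). Sox5 fell from 302 ± 25.3 at E14 to 175 ± 38.3 at P0 (log2 fold change -0.81, limma adjusted p = 0.00128).

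Otx2 was at 941, 903 and 836 normalized reads at E14, at 734, 868 and 760.0 at E16 and at 904, 900.2 and 614 at P0. The ages overlapped, and P0 library iii was the lowest of all. The log2 fold change from E14 to P0 was -0.17 (SE 0.13, limma adjusted p = 0.299). Of 10 measured genes of the SoxD and Otx list, none rose by limma (0 at an unadjusted p under 0.05 and 0 at the adjusted threshold) and 5 fell, with the corepressor Ctbp2 (-1.22) among them. Of all genes, 25.1% rose and 30.6% fell.

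Without overlap between E14 and P0 stood 5 of the 7 members, as did 65.2% of all genes. For E14 against E16 the count was also 5, against 46.4%, and for E16 against P0 it was 2, Calb1 and Calb2, against 44.8%. By limma at the adjusted threshold, the change after E16 was lower than that before it for 3 of the 7, Ndnf, Kcnj6 and Calb2. The same held for 5.62% of all genes. The contrast is signed, so a gene that fell only after E16 counts as lower too.

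Of the nigral list, 11 of 15 measured genes rose and 3 fell from E14 to P0, with a median log2 fold change of 0.98. Of the tegmental list 8 of 17 rose and 8 fell, with a median of -0.17. Over all genes the median was -0.05, with 25.1% rising and 30.6% falling. Of the nigral and tegmental genes measured, 4 and 3 are members. Beside the members, the nigral genes Aldh1a1 (3.04), Nrip3 (2.89) and Igf1 (1.65), a growth factor gene, rose, while the matrix proteoglycan Vcan (-1.23) and the chromatin organizer Satb1 (-0.66) fell. Among the tegmental genes the receptor Tacr3 (2.96), the transcription factor Neurod6 (2.24) and the neuropeptide gene Adcyap1 (1.21) rose, and Cbln1 (-1.20), Cck (-0.98) and Ebf1 (-0.75) fell. Markers given for each territory thus moved in both directions with age.

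Levels of different genes were set side by side per kilobase of annotated exon. The length was the union of all annotated exons of a gene, whichever transcripts were present, so the order of genes rests on the annotation. On this scale Calb2 was the most abundant member at every age of the series and Lmo3 the next. Calb2 was at 1041 ± 99.0 normalized reads per kb at E14 and 2748 ± 393 at P0, and Lmo3 at 777 ± 45.1 and 1419.8 ± 337. Calb1 was at 214 ± 19.5 at E14, a range that overlapped with that of Otx2 (212 ± 12.7), and at 1001 ± 52.9 at P0. Ndnf passed from below Sox6 at E14 (63.9 ± 9.64 against 86.3 ± 5.68) to above it at E16 (202 ± 1.96 against 91.2 ± 6.24), and its range overlapped with that of Otx2 at E16 and at P0. Kcnj6 was the lowest at each age, 44.9 ± 3.43 at E14 and 74.3 ± 13.4 at P0, where its range met that of Sox6 (84.7 ± 26.2). In the sort, Calb2 and Lmo3 were again the highest, 717 ± 119 and 639.6 ± 66.2 per kb in GFP+ cells with overlapping ranges, and Lpl the lowest at 4.05 ± 0.776.

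At P0 the 3 libraries themselves differed in these markers, a pattern noticed after the values were seen and given here without a test. Sox6, Lmo3 and Ndnf were lowest in library i, between in library ii and highest in library iii, with log2 differences of i minus iii of -0.94, -0.70 and -0.96. Calb1, Calb2 and Otx2 were highest in library i and lowest in library iii, with differences of 0.14, 0.40 and 0.56. Kcnj6 was highest in library iii as well (-0.37 for i minus iii), with library ii the lowest. The replicate SD on the log2 scale was 0.48 for Sox6 and 0.49 for Ndnf at P0, above that of 99.0% and 99.1% of genes, where the median gene had 0.11. At E14 the SDs of these genes were 0.09 and 0.23, and at E16 0.10 and 0.01.

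**Figure D3:**
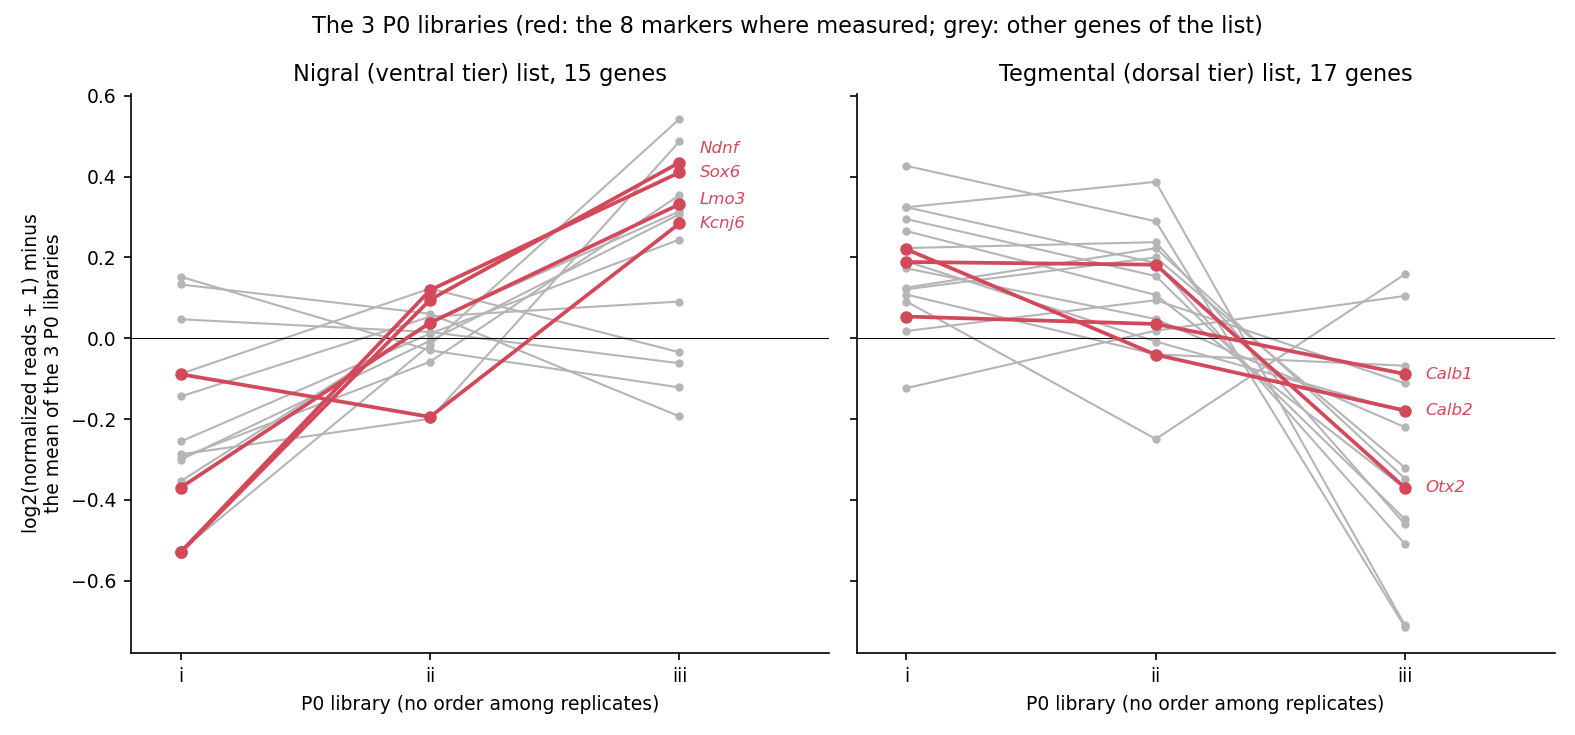
Level of each gene of the nigral list (left, 15 genes) and the tegmental list (right, 17 genes) in P0 libraries i, ii and iii, as log2(normalized reads + 1) minus the gene's mean over the 3 (vertical axis); red marks members and grey the other genes, and lines join the values of one gene. Library iii is highest for all 4 nigral members and lowest for all 3 tegmental members.

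Other genes of the lists were placed likewise. Of the 11 nigral genes that are not members, 8 were higher in library iii than in library i, with a median of i minus iii of -0.50. Slc6a3 was at 20002, 28473 and 41949 normalized reads in libraries i, ii and iii, Drd2 at 464, 610.0 and 738, and Zdhhc2 at 3125, 3832 and 4762. Igf1, Vcan and Rab3c went the other way (0.33, 0.27 and 0.11 for i minus iii). Of the 14 tegmental genes that are not members, 12 were higher in library i, with a median of 0.46. Nfib was at 2238, 2035 and 1014, Ebf1 at 972, 1015 and 474, and the glutamate transporter gene Slc17a6 at 8211, 8294 and 5111. Neurod6 and Tacr3 were lower in library i than in iii (-0.23 and -0.07). Of all 10759 named genes, 44.9% were higher in library i, with a median of -0.03. The P0 libraries thus ranged from more tegmental and less nigral marker RNA in i to the reverse in iii. Libraries i and iii did not split in this way at E16, where 7 of 15 nigral and 8 of 17 tegmental genes, members included, were higher in library i. At E14 13 of 15 and 12 of 17 were, so both lists leaned the same way. Other pairs of libraries were not compared for the lists, and library numbers need not match between ages. Among members at E16, library ii was lowest for Kcnj6, Lmo3 and Ndnf and highest for Calb1 and Otx2. Sox6 was lowest and Calb2 highest in library i there.

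Markers of other cells also differed between the P0 libraries. Mrc1, the only one of 9 microglia and macrophage genes in the age series, was at 240.1, 484 and 799 normalized reads in libraries i, ii and iii. Of 4 progenitor and radial glia genes in the table, Fabp7 was highest in library iii, at 1438, 1081 and 3293, while the other 3 were higher in i than in iii, Vim at 953, 908 and 882, Nes at 285, 213 and 228 and Wnt5a at 3830.4, 3560.3 and 2986. Apoe, abundant in glia, was at 725, 672 and 2216. The sum of 3 of 12 GABA neuron genes was 5083, 4407 and 3181. Slc17a6, given above with the tegmental list, is also the only measured gene of 13 of a list of glutamate, cholinergic and serotonin neurons, and Slc32a1 is on both the tegmental and the GABA list (383, 351 and 292). Slc6a3, Drd2 and Aldh1a1 are on both the nigral and the dopamine neuron list, and the sum of the 17 dopamine neuron genes was 248598, 287753 and 308530. Recovered depth was 19373239, 24207739 and 33386535 reads. No gene of the astrocyte and oligodendrocyte, vascular or erythroid lists was in the table of this series. The part of these differences in the marker pattern was not tested.

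The genes whose profile over the 9 libraries of the age series was most like that of a member are given as a description, with Pearson's r on the log2 scale, since all profiles share age, library and depth. For Calb1 they were Matk, Ildr2 and Slc6a7 (r = 0.995 each). For Calb2 they were Rcn1 (0.994), a calcium-binding protein of the endoplasmic reticulum, Adamtsl1 and Trpc5 (0.989 each). For Ndnf they were Zdhhc2 (0.997), a palmitoyl transferase gene of the nigral list, Cdh8 (0.997) and Slitrk4 (0.995). For Lmo3 they were the synaptic calcium sensor Syt1 (0.990), Rnf14 (0.990) and 2210016L21Rik (0.988), and for Kcnj6 Tsc22d3 (0.985), Sord (0.982) and Diras2 (0.978). Among the members, the profiles of Lmo3 and Ndnf (0.96) and of Calb1 and Calb2 (0.94) were the most alike, and those of Otx2 and Kcnj6 (-0.65) the least.

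Kcnj6 was the only member with a circRNA abundant enough to be tested. circ_00065_Kcnj6, number 60 of 7528 circRNAs by mean level, had 23, 38 and 22 reads at E14, 57, 49 and 52 at E16 and 30, 36 and 82 at P0. As normalized by the authors it was at 17.6, 27.3 and 20.1 at E14, at 38.0, 46.8 and 39.8 at E16 and at 49.5, 58.7 and 97.2 at P0. All P0 libraries were above all E16 libraries and these above all E14 libraries. The log2 fold change from E14 to P0 was 1.58 (SE 0.32, limma adjusted p = 0.0149), or 2.99-fold, and 1.23% of the 1630 circRNAs tested were higher at P0. The call was lost without E14 library i (1.45, limma adjusted p = 0.0941) or iii (1.54, limma adjusted p = 0.0608). Neither E14 to E16 (0.93, limma adjusted p = 0.710) nor E16 to P0 (0.65, limma adjusted p = 0.443) passed.

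The size of that increase, and its call, depended on how circRNAs are scaled. The authors scaled circRNAs by a factor of their own in each library; with circRNA reads set against the reads of the gene table instead, the median of all circRNAs fell by 1.05 on the log2 scale from E14 to P0, against a fall of 0.36 as deposited. On that scale circ_00065_Kcnj6 changed by 0.61 (limma adjusted p = 0.210). It held 85.3 ± 14.2 reads per 1000 reads of its host gene at E14, 78.5 ± 2.99 at E16 and 78.2 ± 9.76 at P0 (mean ± SD, n = 3). An exact permutation test, two-sided, gave p = 0.60 for E14 against P0, where 3 libraries against 3 cannot go below 0.10. Per 1000000 gene reads the circle was at 1.17 ± 0.212 at E14, 1.98 ± 0.0389 at E16 and 1.83 ± 0.543 at P0. There all E16 and all P0 libraries were above all E14 libraries, with the smallest possible exact permutation p of 0.10 for each against E14 and 0.80 for E16 against P0. Fitted over all 1558 circRNAs with a measured host, its log2 ratio to the host changed by -0.13 per gene reads (limma adjusted p = 0.723), while the median over those circRNAs was -0.92. With the authors' factors the ratio changed by 0.87 (limma adjusted p = 0.0957).

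**Figure D4:**
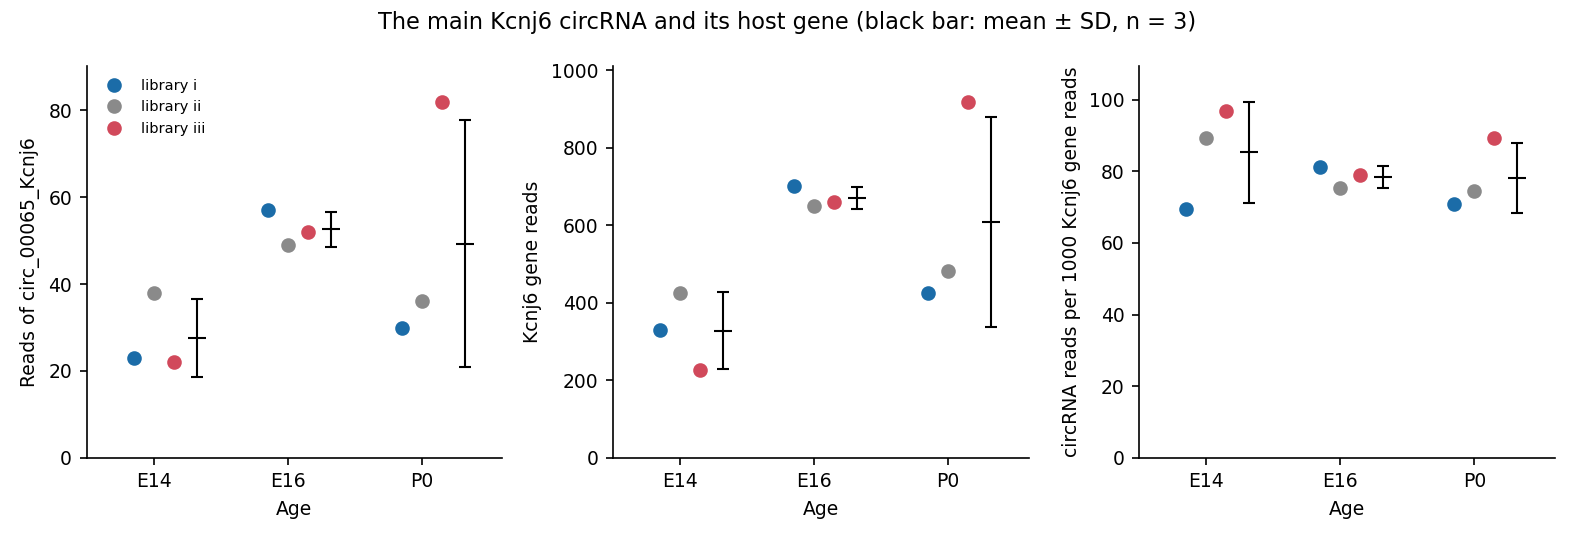
Reads of circ_00065_Kcnj6 (left), reads of the Kcnj6 gene (centre) and circRNA reads per 1000 gene reads (right) in GFP+ cells at E14, E16 and P0; dots are libraries i, ii and iii and black bars the mean ± SD of 3. Circle and host reads, not scaled for depth, are both highest in P0 library iii, and the ratio lies between 69.5 and 96.9 in all 9 libraries.

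Circle and host differed in the same direction across the P0 libraries, at 2.46 circRNA reads per 1000000 gene reads and 683 normalized host reads in library iii against 1.55 and 527 in library i. The reads behind these values were 82 and 919 against 30 and 424, in libraries of unequal depth. The other circRNAs of members were rare. circ_03344_Kcnj6 had 7 reads in E16 library ii and 0 elsewhere, and the 4 circRNAs of Sox6 had 2 or 3 reads in 1 or 2 libraries each, where a count of 0 allows up to 3 reads. In GFP− cells of the sort, circ_00294_Kcnj6 had 8, 6 and 3 reads in the 3 libraries, and the authors' deposited table puts GFP+ cells 1.19 higher in log2 (SE 0.65, adjusted p = 0.749). No coordinates came with the circRNAs, so this circle was not matched to one of the age series. Of Sox6, circ_03099_Sox6, circ_04031_Sox6 and circ_04033_Sox6 were listed in the sort, with 0 reads in all GFP− libraries. The authors' log2 differences for them were 1.84 to 2.40, with SEs of 4.01 to 4.06.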

How the data were processed

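RNA of 15 sorted samples was analysed from tables the authors deposited. Tools named in the submitters' processing notes are DESeq2, TopHat2 and Trim Galore, with builds mm10 and GRCm38. The sources used here give no read counter, strand use or circRNA caller, so overlapping genes on opposite strands may share reads. Gene and circRNA values are normalized reads deposited by the authors, treated as a signal, with 1 scaling factor per library. Tables of log2 fold changes and p-values (p_value) from the authors' own test were deposited too, per the file headers. Gene values include reads of circles within exons.

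Values in each library were whole multiples of a constant step within 0.1 for 100% of values. The recovered reads came to 17369191 to 22374153 per library in the sort, 17910017 to 33386535 in the age series and 11196 to 33061 for circRNAs there. The step of the age series tables rests on the spacing of values, since their lowest values were 38 gene and 2 circRNA reads. Genes of the age series had means of at least 107, so low genes were not analysed here. Reads carry no molecular identifiers, so counting limits cover counting error alone.

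Two-sided tests used limma 3.58.1 in R 4.3.3 (limma-trend) with log2(normalized reads + 1), for genes with a mean of at least 5 and circRNAs of at least 2, adjusted by Benjamini-Hochberg over each table with threshold 0.05. The 6 sorted libraries and the 9 of the age series were fitted apart. Fold changes on this scale understate changes of low genes. On recovered reads of the sort, edgeR 4.0.16 (quasi-likelihood), added after seeing the data, called 5541 genes against 5599 by limma. Sorted columns could be matched to groups but not to single samples, and carry the column numbers. The test scripts were tested on simulated data.

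The members and lists were chosen with earlier results of these data known. Named are all members, their circRNAs, up to 3 called genes per direction and list with the largest change and a mean of at least 50, close relatives of members, Pitx3 and Th, and the 3 genes most like each member that passed the F test; genes named for the P0 libraries and for markers of other cells, and Kcnj11, were chosen after their values were seen. Gene positions and exon lengths come from GENCODE on GRCm38. Alternatives were other pseudocounts, scalings, filters and tools, the replicate block, and leaving out each library.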

Additional observations from a re-analysis of the deposited data

Results flagged for a closer look

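For 3 members the change after E16 differed from the change before it in GFP+ cells (limma, (P0 − E16) minus (E16 − E14), adjusted over 10781 genes). Calb2 rose by 1.08 on the log2 scale to E16 and by 0.32 after it, a difference of -0.76 (SE 0.18, limma adjusted p = 0.0122), which missed the threshold without E16 library i (-0.66, limma adjusted p = 0.0523). Ndnf rose by 1.67 and then 0.49, a difference of -1.17 (SE 0.31, limma adjusted p = 0.0245), and this was lost without E14 library iii or E16 library i or iii (-1.04 to -1.17, limma adjusted p 0.0503 to 0.0840) and with robust moderation (limma adjusted p = 0.0603). Kcnj6 rose by 0.84 and then changed by -0.13, a difference of -0.97 (SE 0.21, limma adjusted p = 0.00953), kept in every alternative run (-0.87 to -1.11, adjusted p up to 0.0458). Both intervals share the E16 libraries, so a deviation at E16 enters the 2 changes with opposite sign.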

How the results depend on the processing

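Of 713 values of single members or circRNAs under an alternative, 676 stayed on the same side of the threshold, 28 lost a call and 9 gained one. Direction changed in 16 values of 9 results that were not called either way (Calb1 and Ndnf in the sort, the steps of Sox6 and Otx2 with age, the Calb1 and Sox6 change after E16 against before, circ_00065_Kcnj6 from E16 to P0), and in 0 called ones. In the sort, 5599 genes were called, 8466 with the replicate block on column numbers and 8467 by edgeR on recovered reads with the block, which called 5 members higher in place of 3. Same-numbered columns correlated at 0.37, 0.12 and 0.0976 in the sort and at -0.11 to 0.24 in the age series, and GFP− column 3 correlated more with GFP+ column 2 (0.23), so the numbers were not taken to pair samples. With the block Otx2 passed in the sort (0.20, limma adjusted p = 0.0115) and Lmo3 from E16 to P0 (0.33, limma adjusted p = 0.0474). Calb2 kept its call in the sort with the block, at the same log2 fold change (-0.51) and with a smaller SE and adjusted p. These block results hold only as far as the column numbers pair samples. Lpl passed after quantile normalization (0.92, limma adjusted p = 0.0208). Leaving out 1 library gave 0 to 1 members lower in the sort, 1 to 3 rising from E16 to P0 and 1 to 3 with a lower change after E16 than before it. Ndnf from E16 to P0 lost its call in 11 of 19 alternatives, the authors' deposited table among them (adjusted p = 0.0577). CircRNAs called from E14 to P0 numbered 52, and 22 with a pseudocount of 0.5, 92 with 10, 87 with robust moderation, 11 with 2 ages in the fit, 250 per gene reads, and 8 to 53 without 1 library; circ_00065_Kcnj6 was 1 of them but not with 2 ages in the fit, nor per gene reads (0 member circRNAs each), and 0 to 1 without 1 library. The cause of these shifts was not tested. Depth limits Lpl, at 22.8 to 51.8 normalized reads, and the circRNAs of Sox6, at 3 reads or fewer.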

Other observations

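Relatives of a member differed from it in some cases and not in others. In the sort, the pairs Sox6 and Sox5 (0.52 and -1.54), Kcnj6 and Kcnj9 (1.35 and -1.09) and Lmo3 and Lmo1 (1.09 and -3.76) had log2 fold changes of opposite sign, all 6 past the limma threshold. Lmo4 (1.19) was higher like Lmo3, Lmo2 (-1.62) and Kcnj5 (-1.60) were lower, and Kcnj3 and Otx1 did not pass. In the age series Kcnj6 and Kcnj9 both rose (0.71 and 1.51 from E14 to P0). Zdhhc2 was lower in GFP+ than in GFP− cells at E14 (-0.79, limma adjusted p = 2.3e-05) and rose with age (1.33), and Tacr3 (-1.47, then 2.96), Neurod6 (-2.59, then 2.24) and Igf1 (-0.77, then 1.65) did likewise. These genes were chosen after their values were seen, and no difference between genes was tested.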
